A study of Mus musculus with 8 samples.

Results

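Extracellular signal-regulated kinase (ERK) output genes are genes whose transcription is switched on by the ERK pathway, and most of those described here encode proteins that restrain it. The group comprised 10 genes of the 27179 in the deposited count table, chosen by name: the phosphatases Dusp4, Dusp5 and Dusp6, the Sprouty genes Spry1, Spry2 and Spry4, the Sprouty-related genes Spred1 and Spred2, and the ETS transcription factors Etv4 and Etv5. They were followed in RNA-seq libraries of cells sorted from the lungs of C57BL/6 mice (female C57BL/6J in the study's methods) carrying a rearrangement of Eml4 and Alk, which the labels call an Eml4-Alk translocation and whose fusion product drives ALK-positive non-small cell lung cancer. The mice were 18 to 22 weeks old and 11 to 12 weeks past tumor induction, and all had received 4.5 nmol of QZ1-(PEG2K) by tail vein 2 h before the lungs were taken. QZ1 is a quenched peptide probe that becomes fluorescent and tags nearby cells when proteases cut it.

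Viable cells lacking CD45 and CD11b were sorted into QZ1-hi and QZ1-lo populations by probe signal, gated against EpCAM, with 4 libraries of each and at least 100000 cells collected per compartment. Every library therefore shares the genotype, the adenovirus that carried Cas9 and guide RNAs into the airways, and the probe. The rearrangement arises only in cells that the virus edited, and the sort did not select edited cells, so the share of tumor cells in each population is not known. No healthy or ALK-inhibited lung is among the 8 libraries. In such bulk RNA, fewer cells of a type and less RNA per cell cannot be told apart. No source used here says which libraries came from 1 mouse, and no pairing was used.

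Receptor tyrosine kinases such as ALK, the EGF, FGF and VEGF receptors signal through RAS, RAF and MEK to ERK, which enters the nucleus and activates transcription factors. Among the genes induced are dual-specificity phosphatases that take the activating phosphates off ERK, and Sprouty and Spred proteins that act between the receptor and RAF. Transcripts of these genes are widely read as a measure of ERK pathway output, and the same feedback runs in epithelial cells, in sprouting vessels and in the developing lung.

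All 10 genes passed the filter on low counts, and 2 of them differed between the populations. Spry4 was 4.95-fold higher in QZ1-hi and Spry2 was 1.62-fold lower, while the remaining 8 did not pass edgeR's quasi-likelihood test at an adjusted p of 0.05. As background, 18.1% of the 15583 genes tested were called, 9.88% as higher and 8.21% as lower in QZ1-hi, and 22.6% had no overlap between the populations. The 2 members called, of 10, are thus close to the share of all genes called. The 2 called members were also the only members without overlap between the populations. Over the 10 members the median log2 fold change was -0.045, next to 0.024 over all genes tested. Values below are counts scaled to a common library size (CPM) scaled by edgeR's TMM factors, fold changes are QZ1-hi over QZ1-lo, and each ± is the SD over 4 libraries.

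**Figure D1:**
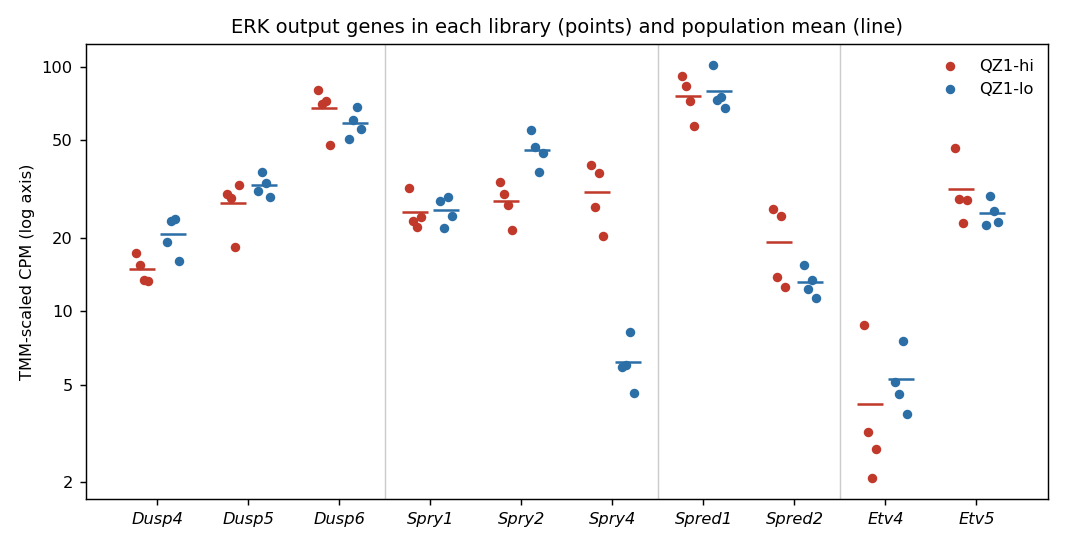
TMM-scaled CPM of each ERK output gene (vertical axis, logarithmic) in the 4 QZ1-hi (red) and 4 QZ1-lo (blue) libraries, with points for libraries in replicate order and lines for population means. Spry4 and Spry2 are the 2 genes whose populations do not overlap, with Spry4 between 20.3 and 39.4 CPM in QZ1-hi and between 4.62 and 8.25 CPM in QZ1-lo.

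Sequences just upstream of the RefSeq transcription start are shown for 3 members, since these genes are defined by how their transcription is controlled. Dusp6 had the highest level per length of the 3 phosphatases, and Spry2 was the gene called lower. Of the 7 members searched, Dusp5 alone had a sequence that held a searched motif. Each runs 5′ to 3′ on the gene's own strand over 250 bases ending at the base before the start, in build GRCm38.p6, at chr19:53528895-53529144 (+) for Dusp5, chr10:99262981-99263230 (+) for Dusp6 and chr14:105896820-105897069 (-) for Spry2. Capitals mark matches to the CArG box, the element bound by serum response factor.
Dusp5: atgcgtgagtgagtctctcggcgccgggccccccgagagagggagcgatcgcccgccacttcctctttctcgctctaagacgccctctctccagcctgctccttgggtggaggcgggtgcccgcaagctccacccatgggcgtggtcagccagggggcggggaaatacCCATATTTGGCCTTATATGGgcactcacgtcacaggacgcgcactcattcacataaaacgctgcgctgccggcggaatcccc
Dusp6: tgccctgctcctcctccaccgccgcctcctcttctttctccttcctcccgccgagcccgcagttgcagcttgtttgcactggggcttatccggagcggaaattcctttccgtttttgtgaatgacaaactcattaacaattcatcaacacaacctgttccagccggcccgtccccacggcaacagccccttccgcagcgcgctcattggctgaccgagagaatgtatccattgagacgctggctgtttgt
Spry2: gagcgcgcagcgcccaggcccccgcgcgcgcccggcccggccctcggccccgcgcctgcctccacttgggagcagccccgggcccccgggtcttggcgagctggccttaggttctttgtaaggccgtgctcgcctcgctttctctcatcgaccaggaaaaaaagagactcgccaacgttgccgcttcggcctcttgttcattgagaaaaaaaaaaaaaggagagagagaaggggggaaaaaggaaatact

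Motifs of factors that act below ERK were searched on both strands in the upstream 250 bases of 7 members. Members on chromosome 18 were left out of the search, so that Spry4, the gene called higher, was not searched. Dusp4 and Etv4 were not matched to the RefSeq promoter table. The Dusp5 window held 2 adjoining CArG boxes, CCATATTTGG from 82 to 73 and CCTTATATGG from 72 to 63 bases before the start. A CArG box was present in 1.48% of 32536 mouse promoters of the same length (481), and 2 or more in 6 of them. No match to an ETS site (CCGGAAGT, in 2.90% of promoters), an AP-1 site (TGACTCA, 4.45%) or a cyclic AMP response element (TGACGTCA, 1.56%) was present in the windows of Dusp5, Dusp6, Spry1, Spry2, Spred1, Spred2 or Etv5. A match describes letters in the window and does not show that a factor binds there.

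Of the phosphatases, Dusp6 (also MKP-3), which resides in the cytoplasm and acts on ERK alone, was at 80.5, 70.0, 72.1 and 48.0 CPM in QZ1-hi and at 50.7, 60.3, 68.2 and 55.5 CPM in QZ1-lo. The populations overlapped, with the lowest of all 8 values in QZ1-hi replicate 4. Its log2 fold change was 0.21 with a standard error (SE) of 0.16 and a 95% confidence interval from -0.15 to 0.57 (edgeR adjusted p = 0.467). Scaling by library size only turned this to -0.21, a setting that moves the median of all genes from 0.024 to -0.44, so that relative to that median Dusp6 was at 0.23.

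Dusp5, a nuclear phosphatase specific for ERK, was at 30.2, 29.0, 18.3 and 33.0 CPM in QZ1-hi and at 31.1, 37.1, 33.3 and 29.3 CPM in QZ1-lo. QZ1-hi replicate 3 was low, and the other 7 libraries lay between 29.0 and 37.1 CPM. The log2 fold change of -0.24 (SE 0.18) did not pass the test (edgeR adjusted p = 0.425), and without that library it was -0.12. On the opposite strand, AC137853.2 covers 22.1% of Dusp5's exonic bases, and whether the counting used strand is not given in the sources used here.

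Dusp4 (MKP-2), a nuclear phosphatase of ERK and of the stress kinases, was at 17.4, 15.4, 13.5 and 13.3 CPM in QZ1-hi and at 19.2, 23.4, 23.7 and 16.1 CPM in QZ1-lo. Only QZ1-lo replicate 4 fell within the range of QZ1-hi. The mean was 14.9 ± 1.90 CPM in QZ1-hi and 20.6 ± 3.65 CPM in QZ1-lo. The log2 fold change was -0.47 (SE 0.17, 95% confidence interval -0.85 to -0.087) with an edgeR adjusted p of 0.0909. It passed the test only with scaling by library size, at -0.90 (edgeR adjusted p = 0.0262), where the median of all genes was -0.44.

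Among the Sprouty genes, which encode membrane-associated inhibitors of signaling from receptor to RAF, 1 of the 3 was called higher, 1 lower and 1 was not called. Spry4 (Entrez 24066), which restrains signaling from FGF and VEGF receptors and lies at chr18:38586247-38601415 on the minus strand in mm10 (GRCm38), was at 39.4, 26.7, 36.7 and 20.3 CPM in QZ1-hi and at 5.93, 6.06, 8.25 and 4.62 CPM in QZ1-lo. The lowest QZ1-hi library was thus above the highest QZ1-lo library. The mean of 30.8 ± 8.87 CPM against 6.22 ± 1.50 CPM gave a log2 fold change of 2.31 (SE 0.25, 95% confidence interval 1.76 to 2.85; edgeR adjusted p = 0.000278). By p-value it ranked 72 among the genes tested, and by log2 fold change 650, so that 4.16% of genes had a larger one. Leaving out each library in turn gave log2 fold changes from 2.17 to 2.49, each called.

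Spry2 (Entrez 24064; chr14:105891947-105896819, minus strand), a widely expressed Sprouty that binds the adaptor GRB2 and the ubiquitin ligase CBL, was at 33.9, 30.0, 27.3 and 21.5 CPM in QZ1-hi and at 54.9, 47.1, 37.1 and 44.2 CPM in QZ1-lo. Every QZ1-lo library was above every QZ1-hi library. The means were 28.2 ± 5.19 and 45.8 ± 7.35 CPM, a log2 fold change of -0.70 (SE 0.17, 95% confidence interval -1.07 to -0.33) with an edgeR adjusted p of 0.0131. The call was kept with each library left out, at log2 fold changes from -0.80 to -0.57, and was lost only at a stricter adjusted p of 0.01.

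Spry1, which limits branching of the ureteric bud in the kidney, was at 31.9, 23.4, 22.2 and 24.4 CPM in QZ1-hi and at 28.2, 21.8, 29.3 and 24.6 CPM in QZ1-lo. Its populations covered nearly the same range. The log2 fold change was -0.029 (SE 0.16), and its interval from -0.38 to 0.32 contains neither the Spry4 nor the Spry2 estimate (edgeR adjusted p = 0.933). Gm42922, on the opposite strand, covers 24.4% of its exonic bases.

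The makeup of the Sprouty transcripts was also read within each library. For every 100 Spry2 counts there were 117, 89.0, 135 and 94.5 Spry4 counts in the QZ1-hi libraries and 10.8, 12.9, 22.2 and 10.5 in the QZ1-lo libraries. Per kilobase of exon, the share of Spry4 among the Spry1, Spry2 and Spry4 transcripts was 22.3% ± 3.81 and 4.11% ± 1.23, respectively. As counts, not corrected for length, Spry4 and Spry2 were nearly equal in QZ1-hi, and Spry2 dominated in QZ1-lo. Per kilobase of exon, Spry2 was above Spry4 in both, at 13.5 and 6.48 CPM in QZ1-hi and at 21.9 and 1.31 CPM in QZ1-lo.

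Spred1 and Spred2 encode membrane proteins that keep RAF inactive, Spred1 by recruiting neurofibromin, the RAS inactivator, to the membrane. Spred1 was at 91.1, 83.4, 72.4 and 57.4 CPM in QZ1-hi and at 101.8, 73.2, 75.1 and 67.6 CPM in QZ1-lo, with a log2 fold change of -0.062 (SE 0.17; edgeR adjusted p = 0.863). The populations overlapped over most of their range. Spred2 was at 26.1, 13.8, 24.6 and 12.5 CPM in QZ1-hi and at 15.5, 12.3, 13.4 and 11.4 CPM in QZ1-lo. QZ1-hi replicates 1 and 3 stood above all other libraries, while replicates 2 and 4 lay within the QZ1-lo range. The log2 fold change of 0.55 (SE 0.25) did not pass the test (edgeR adjusted p = 0.172), and it was 0.37 to 0.73 with a library left out, lowest without QZ1-hi replicate 1. Stretches of 50 bases shared with Gm14612 made up 1.34% of Spred2's exonic sequence.

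Etv4 and Etv5 are ETS factors of the PEA3 group that act below FGF receptors in lung branching, and Etv5 is also expressed in alveolar type 2 cells. Etv5 was at 46.5, 28.8, 23.0 and 28.4 CPM in QZ1-hi and at 22.5, 29.6, 25.7 and 23.1 CPM in QZ1-lo. QZ1-hi replicate 1 was high, and the other 7 libraries lay within one range, from 22.5 to 29.6 CPM. The log2 fold change was 0.33 (SE 0.21; edgeR adjusted p = 0.334), 0.086 without that library, and -0.069 with scaling by library size only, where the median of all genes was -0.44. Of Etv5's exonic stretches of 50 bases, 24.5% also occur in Gm4798, so that its counts are uncertain where reads could be split.

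Etv4 was the gene with the fewest counts and the widest spread, with an SD within populations of 0.63 on the log2 scale, next to 0.21 to 0.40 for the other 9. It was at 8.77, 3.21, 2.08 and 2.74 CPM in QZ1-hi and at 5.13, 4.60, 7.56 and 3.81 CPM in QZ1-lo, where 3 counts correspond to 0.0894 to 0.179 CPM. The same QZ1-hi replicate 1 was above all other libraries, and the other 3 QZ1-hi libraries were below all QZ1-lo libraries. The log2 fold change was -0.32 (SE 0.44, 95% confidence interval -1.29 to 0.65; edgeR adjusted p = 0.704), and -0.97 without QZ1-hi replicate 1, again without passing the test (edgeR adjusted p = 0.098). With any other library left out it was between -0.45 and -0.093.

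**Figure D2:**
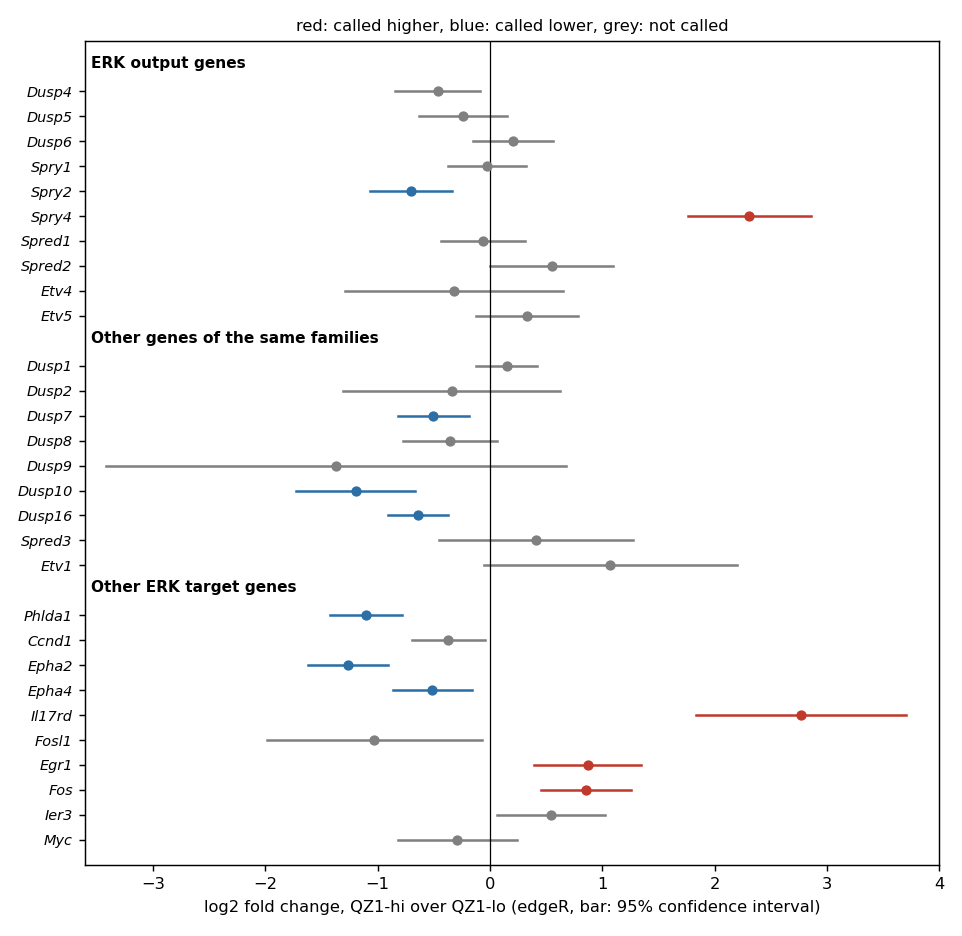
Log2 fold change of QZ1-hi over QZ1-lo (horizontal axis) from the edgeR fit, with 95% confidence intervals as bars, for the 10 ERK output genes, 9 other genes of the same families and 10 other ERK target genes, coloured red where called higher, blue where called lower and grey where not called. Spry4 at 2.31 and Il17rd at 2.77 stand to the right of all other genes shown.

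Within populations, libraries high for one member were often high for others. Over the 45 pairs of members, the correlation of their deviations from the population means across the 8 libraries had a median of 0.45 and a range from -0.50 to 0.87, and 40 pairs were above 0. These correlations share libraries and their scaling and are given as a description. QZ1-hi replicate 1 had the highest value of its population for 9 of the 10 genes, Dusp5 being the exception, and QZ1-hi replicate 4 the lowest for 6.

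Whether genes of one family changed alike was tested by the log2 ratio of their counts within a library, which does not depend on library scaling. The Spry2 to Spry4 ratio was -0.22, 0.17, -0.43 and 0.082 in QZ1-hi and 3.20, 2.94, 2.16 and 3.23 in QZ1-lo, a difference of -2.98. That of Spry1 to Spry4 differed by -2.31 and that of Dusp4 to Dusp6 by -0.64, both again without overlap between the populations. Each of these 3 pairs had the smallest p that 4 against 4 libraries allow in a two-sided exact permutation test, 0.0286, and 0.0762 after adjustment over the 8 pairs, so that no pair passed 0.05 after adjustment. By the edgeR fit, the 95% confidence intervals of Spry4 and Spry2 and of Spry4 and Spry1 do not overlap.

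For the Dusp4 to Dusp6 ratio, the QZ1-hi libraries were at -2.21, -2.18, -2.41 and -1.84 and the QZ1-lo libraries at -1.40, -1.36, -1.52 and -1.78. The replicate 4 libraries of the populations were the closest to each other. The remaining 5 pairs overlapped between the populations, with differences of 0.67 for Spry1 to Spry2, -0.78 for Etv4 to Etv5, -0.55 for Spred1 to Spred2, -0.46 for Dusp5 to Dusp6 and -0.18 for Dusp4 to Dusp5 (exact permutation p from 0.0571 to 0.4).

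**Figure D3:**
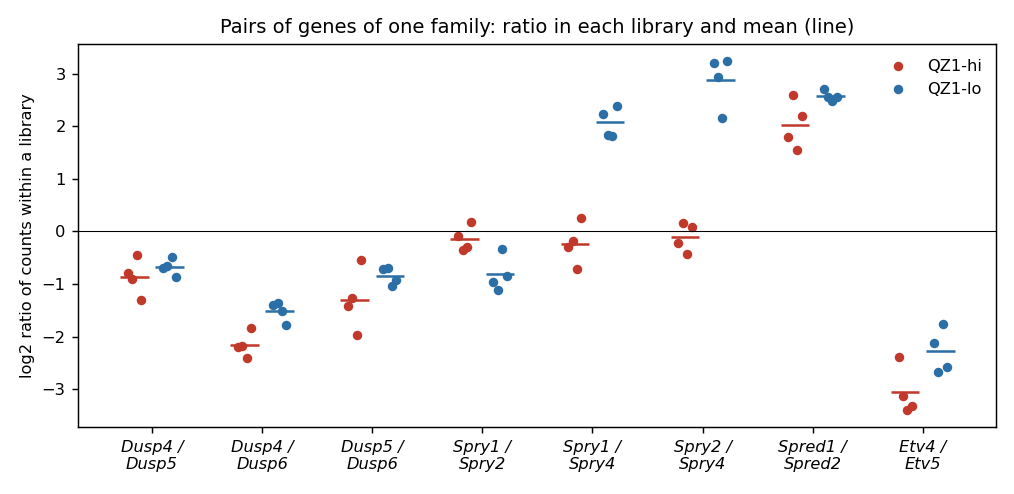
Log2 ratio of the counts of 2 genes of one family within a library (vertical axis) for 8 pairs, with points for the QZ1-hi (red) and QZ1-lo (blue) libraries and lines for population means. The Spry2 to Spry4 ratio averages -0.10 in the red and 2.88 in the blue libraries, the widest separation of the 8 pairs.

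Per kilobase of exon, the level compared between genes, Dusp6 came first in QZ1-hi at 21.6 ± 4.43 CPM per kilobase, followed by Spry2 at 13.5, Spred1 and Dusp5 at 11.2, Spry1 at 8.77, Etv5 at 7.72, Spry4 at 6.48, Dusp4 at 5.44, Spred2 at 4.17 and Etv4 at 1.35. In this order each of the 9 pairs of neighbours overlapped over their 4 libraries. The order in QZ1-lo was Spry2 at 21.9 ± 3.52 CPM per kilobase, Dusp6 at 18.7, Dusp5 at 13.2, Spred1 at 11.7, Spry1 at 8.95, Dusp4 at 7.52, Etv5 at 6.15, Spred2 at 2.85, Etv4 at 1.70 and Spry4 at 1.31. There, 3 of the 9 neighbours did not overlap, namely Dusp6 above Dusp5, Etv5 above Spred2 and Spred2 above Etv4. Spry4, last in QZ1-lo, was seventh of the 10 genes in QZ1-hi.

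**Figure D4:**
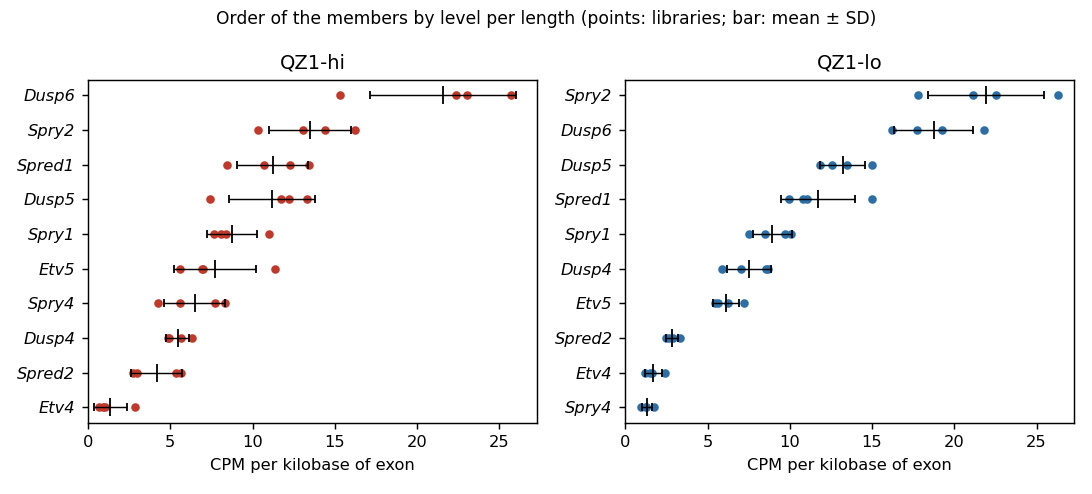
Level per length of the 10 genes (horizontal axis, TMM-scaled CPM per kilobase of exon), ordered from highest to lowest in QZ1-hi (left) and QZ1-lo (right), with points for libraries and black bars for mean ± SD over 4 libraries. Spry4 moves from the bottom of the QZ1-lo order, at 1.31, to 6.48 in QZ1-hi.

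Other genes of the same families gave 0 higher and 3 lower of 9 tested, with a median log2 fold change of -0.36. The shares over all genes tested were 9.88% higher and 8.21% lower. No member of this list was called higher by edgeR, DESeq2 or limma, and 3 had an unadjusted p under 0.05, the 3 called lower. Dusp10, a phosphatase of p38 and JNK, fell to 7.11 ± 2.36 from 16.2 ± 2.17 CPM (log2 fold change -1.20, SE 0.24; edgeR adjusted p = 0.00547). Dusp16, which acts on JNK, fell to 43.1 ± 4.07 from 67.3 ± 6.66 CPM (-0.64, SE 0.12; edgeR adjusted p = 0.00375). Dusp7, a cytoplasmic ERK phosphatase like Dusp6, was at -0.50 (SE 0.14; edgeR adjusted p = 0.0313). That call was lost without QZ1-hi replicate 2 or 3 or without QZ1-lo replicate 1, 2 or 3, where the edgeR adjusted p was 0.0541 to 0.0753. Dusp1, an immediate early phosphatase with the highest level of the list, was at 349.7 ± 48.7 and 315.5 ± 13.4 CPM and did not pass the test (log2 fold change 0.15). Etv1, the third PEA3 gene, was at 5.43 ± 3.68 and 2.59 ± 1.27 CPM (1.07, SE 0.51; edgeR adjusted p = 0.195), and Spry3 had 0 counts in all 8 libraries.

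Of 10 further ERK target genes, 3 rose, 3 fell and 4 did not pass the test, with a median log2 fold change of -0.33. Of all genes tested, 9.88% were called higher and 8.21% lower. This list was chosen with earlier results of these data known, so its share of calls is not a test of ERK targets. Il17rd, whose product Sef holds back FGF and ERK signaling, was at 19.3 ± 4.68 CPM in QZ1-hi next to 2.83 ± 1.95 CPM (log2 fold change 2.77, SE 0.42; edgeR adjusted p = 0.00119). The immediate early transcription factors also rose, Egr1 by 0.87 (SE 0.22; edgeR adjusted p = 0.0167) to 537 ± 159 CPM and Fos by 0.86 (SE 0.18; edgeR adjusted p = 0.0077) to 831 ± 168 CPM. Both calls were lost with scaling by library size only, at 0.42 and 0.39, and that of Egr1 also without QZ1-hi replicate 2 or 3 or QZ1-lo replicate 1, where the edgeR adjusted p was 0.0502 to 0.0534.

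The 3 that fell were Epha2, a receptor of ephrins, at -1.27 (SE 0.16; edgeR adjusted p = 0.000527), Phlda1, an inducible pleckstrin homology protein, at -1.10 (SE 0.15; edgeR adjusted p = 0.00059), and Epha4 at -0.51 (SE 0.16; edgeR adjusted p = 0.0479). Epha2 was at 72.8 ± 16.9 CPM in QZ1-hi and 175 ± 16.5 CPM in QZ1-lo. On the opposite strand, Gm28592 covers 33.0% of Phlda1's exonic bases. The Epha4 call held with only 1 of the 8 libraries left out, QZ1-hi replicate 1, and without each of the others the edgeR adjusted p was 0.051 to 0.139. Ccnd1, encoding cyclin D1, was at -0.37 (edgeR adjusted p = 0.116), Fosl1 at -1.03 (0.142), Ier3 at 0.55 (0.119) and Myc at -0.29 (0.486). Without QZ1-hi replicate 4, Ier3 passed the test, at 0.73 (edgeR adjusted p = 0.0274).

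Of the 23 cascade genes that carry the signal from receptor to ERK, none was called by edgeR, DESeq2 or limma, and 3 had an unadjusted p under 0.05 in edgeR. Their median log2 fold change was 0.043. Mapk3, which encodes ERK1, was at 0.25 (SE 0.14; edgeR adjusted p = 0.264). Ksr1, a scaffold for RAF, MEK and ERK, was at 0.62 (SE 0.21; edgeR adjusted p = 0.0688), and the adaptor Shc1 at 0.31 (SE 0.11; edgeR adjusted p = 0.0897). Neither Ksr1 nor Shc1 had libraries that overlapped between the populations.

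Markers of other cell types moved with the 2 called members. All 8 endothelial markers (among them Cdh5, Pecam1 and Kdr) were called higher in QZ1-hi, with a summed level of 921 to 2189 CPM against 70.6 to 281 CPM. Of 6 pericyte markers 4 were called higher (116 to 215 against 7.53 to 29.5 CPM), of 6 fibroblast markers 5 (921 to 1850 against 26.6 to 218 CPM) and of 3 mesothelial markers 3 (29.7 to 208 against 5.44 to 27.5 CPM). All 4 general epithelial markers were called lower (417 to 683 against 1181 to 1640 CPM), as were 4 of 4 alveolar type 1 markers (368 to 585 against 764 to 933 CPM) and 4 of 4 airway markers (287 to 856 against 1308 to 3684 CPM). Of 6 alveolar type 2 markers 1, Sftpc, was called higher (summed level 5604 to 10216 against 4242 to 6647 CPM). Neither the 5 blood cell markers (211 to 453 against 195 to 350 CPM) nor the 3 red cell markers (61.9 to 472 against 131 to 1464 CPM) held a called gene. No marker was at or under 3 counts in every library of a population, and mitochondrial genes and ribosomal RNA took 43.7 to 65.6% of counts in QZ1-hi and 34.0 to 53.2% in QZ1-lo. The part of these markers in the Spry4, Spry2 and Il17rd differences was not tested.

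Within QZ1-lo, the order of the libraries by Spry4 (replicates 3, 2, 1 and 4 from high to low) was that of their mean endothelial marker level, 4.75, 3.68, 3.20 and 2.79 as mean log2 of CPM plus 0.5. It was equally that of the pericyte markers (1.95, 1.62, 1.41 and 0.43) and the fibroblast markers (4.10, 3.77, 2.64 and 1.45). In QZ1-hi, Spry4 was higher in replicates 1 and 3 than in 2 and 4, as were the endothelial markers, with means of 7.30, 6.54, 7.75 and 6.46 in replicates 1 to 4. The pericyte means there were 3.64, 3.78, 4.02 and 3.54, and the fibroblast means 5.78, 6.58, 7.18 and 5.98. The full QZ1-hi order of Spry4, replicates 1, 3, 2 and 4 from high to low, was not that of the endothelial, pericyte or fibroblast means. It was that of the alveolar type 2 means, 9.55, 9.08, 9.12 and 8.82 in replicates 1 to 4. The alveolar type 1 means, 6.47, 6.25, 6.28 and 6.04, had the same order. In QZ1-lo neither alveolar list had the order of Spry4. Spry2 followed the epithelial markers in QZ1-hi, where replicates 1, 2, 3 and 4 had epithelial means of 7.29, 7.12, 6.75 and 6.57. It did not in QZ1-lo, where replicate 3 had the highest epithelial mean, 8.53, and the lowest Spry2. Members that were not called shared these orders. In QZ1-hi, Spred1 and Dusp4 had the order of Spry2, and Dusp6 and Spred2 that of Spry4. In QZ1-lo, Dusp4 had the order of Spry4. For Etv4 and Etv5, QZ1-hi replicate 1 also had the highest alveolar type 2 mean, 9.55 against 8.57 to 9.12 in the other 7 libraries. That replicate had the highest epithelial mean of QZ1-hi as well. Replicate 3 came next in QZ1-hi by alveolar type 2 mean, at 9.12, but had the lowest Etv4 and Etv5 of that population. In QZ1-lo the order by alveolar type 2 mean, which was also that by epithelial mean, was that of Etv4 and not that of Etv5. With 4 libraries a population these orders are a description, without a test.

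**Figure D5:**
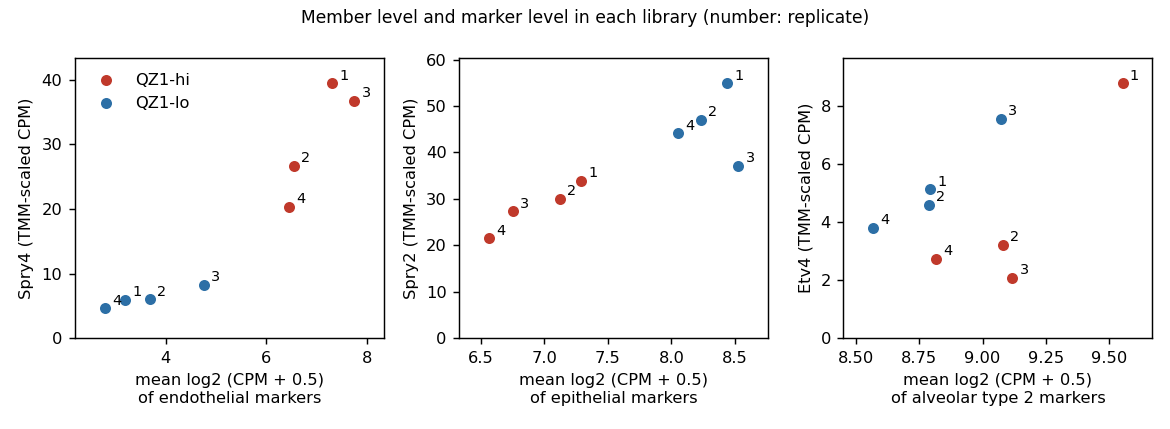
Level of Spry4, Spry2 and Etv4 (vertical axes, TMM-scaled CPM) against the mean log2 of CPM plus 0.5 of endothelial, epithelial and alveolar type 2 markers (horizontal axes) in each QZ1-hi (red) and QZ1-lo (blue) library, numbered by replicate. Spry4 and the endothelial markers are both higher in all QZ1-hi libraries, while QZ1-hi replicate 1 has the highest Etv4 level, 8.77 CPM, and the highest alveolar type 2 mean, 9.55.

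The genes whose pattern over the 8 libraries was nearest to that of a member were found by the root mean square distance of log2 CPM centred on each gene's mean, among 10326 genes. Nearest to Spry4 were Adamts1, a secreted metalloprotease (distance 0.14, 175 and 34.9 CPM in QZ1-hi and QZ1-lo), Myct1 (0.14; 21.3 and 4.50 CPM) and Pitpnc1 (0.16; 51.1 and 10.5 CPM), next to a median distance of 1.17 over all genes searched. Their log2 fold changes, 2.32, 2.24 and 2.28, lie near the 2.31 of Spry4 because the distance uses that difference. Nearest to Dusp6 were Irgm2 (0.10), Gstt3 (0.10) and Dars (0.11; median of all genes 0.38), and nearest to Etv5 were Inhbb (0.12), Slc26a9 (0.13) and Aldoart2 (0.14; median 0.42), none of which was called.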

How the data were processed

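The authors sequenced stranded total RNA libraries (SMARTer kit, NextSeq500) and deposited raw counts, obtained from BAM files with Rsubread and not normalized, for 27179 Entrez genes. The submitters' processing notes name the build mm10 and DESeq2. The aligner, annotation and strand setting are not given in the sources used here. The reference gene tables gave 25275 identifiers a mouse symbol and left 1904 without. Libraries held 18380918 to 26847938 counts. Reads carry no molecular identifiers, so the level of 3 counts covers counting error only.

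Populations were compared in R 4.3.3 with edgeR 4.0.16 (TMM factors, filterByExpr with a minimum count of 10 and a minimum total of 15, quasi-likelihood F test, Benjamini-Hochberg adjustment over 15583 genes, threshold 0.05). SEs were derived from the F statistic, as the absolute log2 fold change over its root. Ratios within families added 2 counts and were compared by two-sided exact permutation over 70 assignments. Lengths, overlapping genes and shared 50-base stretches came from GENCODE M21 on GRCm38.p6. The scripts were tested on simulated data. The series' design text calls the libraries biological replicates, without tying them to single mice, so p-values measure the spread between libraries.

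The members and the other lists were chosen with earlier results of these data known. Named genes were all members, the called genes of each list up to 4 a direction, up to 4 not called, markers, and the 3 genes nearest in pattern to Dusp6, Spry4 and Etv5 among genes with a symbol and a mean of at least 5 CPM; which uncalled genes were named was chosen after their values were seen. Alternatives were DESeq2 1.42.0, limma 3.58.1 (voom with quality weights), DESeq2 size factors, library size only, no filter, robust shrinkage, a minimum of 10 counts in all libraries, a threshold of 0.01, removal of 48 mitochondrial and ribosomal RNA genes, each library left out, and prior counts of 0.5 and 5 for the ratios.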

Additional observations from a re-analysis of the deposited data

Results flagged for a closer look

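Among 66 groups of 4 libraries examined for the members and the other named genes of the lists, 1 held a library far from the others by Dixon's test at the 95% level, where chance flags about 1 in 20 groups. Etv4 was at 8.77 CPM in QZ1-hi replicate 1 and between 2.08 and 3.21 CPM in the other QZ1-hi libraries.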

How the results depend on the processing

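Spry4 kept its direction and its call under every other setting tried, the adjusted p under 0.01 included, and with each library left out (log2 fold changes 1.90 to 2.49), and Spry2 under all except the adjusted p under 0.01 (-1.13 to -0.57). The number of members called lower was 2 with library size only, which added Dusp4, and 0 at an adjusted p under 0.01. Under the same 2 settings 882 and 902 of all genes were called higher and 2509 and 665 lower, and with library size only the further target genes called went from 3 to 1 higher, losing Egr1 and Fos, and from 3 to 5 lower, and the cascade genes called lower from 0 to 2. That setting shifts the median of all genes to -0.44 and turned the log2 fold change of Dusp6 to -0.21, Etv5 to -0.069, Dusp1 to -0.34, Spred3 to -0.16, Shc1 to -0.14 and Mapk3 to -0.20. Spry1 was at 0.0010 with limma, and with a library left out it ranged from -0.16 to 0.035 and Spred1 from -0.16 to 0.081. The cause of the other changes was not tested. No pair of family genes passed 0.05 after adjustment with either prior count, and with a library left out the exact test cannot go below 0.0571. The order of the 10 genes by level per kilobase was the same with library size only and with the longest transcript as length. No paired analysis was possible because the labels carry no replicate numbers, and those used here name the libraries in accession order without tying one population to the other.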
